A study of Rattus norvegicus with 6 samples.

Results

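Among the 30562 genes counted in tail discs of rats, 8 genes of Schwann cells and peripheral myelin are described here: Mbp, Pmp22, Prx, Mag, Sox10, S100b, Ncmap and Cdh19. They were picked by name because nerve markers were higher in the treated discs of these same libraries. Their differences between the groups were thus selected on the values described. They are given as a description, and nothing is read from a call on them. Schwann cells are neural crest derived glia that ensheath the axons of peripheral nerves, and those around large axons wrap them in myelin, a stack of membrane rich in lipid and in a few structural proteins. The transcription factors SOX10 and EGR2 drive the genes of that program, whereas Schwann cells around thin axons stay without myelin. Nerve fibres of a disc normally reach the outer annulus fibrosus and the tissue around it, so few Schwann cells are found in a disc.

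The rats were 12-week-old male Sprague-Dawley animals, wild type (WT) by genotype, in which a disc of the tail was injured by needle puncture. Discs of the control group received PBS and discs of the other group received AF-PTK@LEV@SPP1, in injections of 10 μL begun 24 h after surgery in an experiment of 8 weeks. AF-PTK@LEV@SPP1 is a liposome fused with bacterial outer membrane vesicles that carries an siRNA against Spp1 (1 mg/kg) and displays, through a tether that oxidants cut, a peptide with affinity for the annulus fibrosus (AF). Whole disc tissue of 3 rats per group was sequenced as bulk RNA, giving the libraries PBS 1, PBS 2 and PBS 3 and the libraries AF 1, AF 2 and AF 3.

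The sample records differ from this account, which follows the methods of the study: they name a control without treatment, a treatment of 14 days, and macrophages sorted from discs of mice. The marker genes were therefore examined in each library. Col1a1, the collagen of annulus and bone, was at 31919.7 to 64079 CPM (counts per 1000000 counts of the library, after normalization). Col2a1, the collagen of cartilage and nucleus pulposus, was at 13873 to 31979.8 CPM. Acan, which encodes their main proteoglycan, was at 2305 to 7450.0 CPM. Adgre1, which encodes the sorting marker F4/80, was at 15.3 to 42.9 CPM. Among other macrophage markers, Csf1r was at 101 to 262 CPM and Lyz2 at 272 to 1833 CPM. Genes of disc matrix thus had high counts in every library, and the statement on sorted macrophages was not followed.

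The PBS libraries held 16565291 to 17942989 counts and the AF libraries 15560728 to 17855184. A gene with 3 counts stood at 0.154 to 0.193 CPM, which was taken as the lowest measured level and covers counting error only. PBS 2 and PBS 3 stood apart from every other pair. Their variance was 1.33 times that of counting alone, and 16 of 14393 genes (0.111%) differed between them. In the other 5 pairs within a group this ratio was 51.3 to 107. PBS 2 and PBS 3 may thus be 1 sample sequenced or deposited more than once, and PBS then has 2 distinct samples. Counts of calls are therefore also given with the pair summed. The fold changes, SEs and adjusted p of single genes treat PBS 2 and PBS 3 as separate unless another fit is named. AF 1 stood apart from AF 2 and AF 3 in Mbp, Prx, Mag, Sox10 and Cdh19, and each library is therefore shown by itself.

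Across all genes, 15042 had enough counts to be tested, and 2727 differed between the groups by edgeR's quasi-likelihood test at an adjusted p under 0.05. Of those tested, 1233 (8.2%) were called higher in AF-PTK@LEV@SPP1 and 1494 (9.93%) lower, and the median log2 fold change of all genes tested was 0.05. With PBS 2 and PBS 3 summed, 575 of 15537 genes were called, 175 higher (1.13%) and 400 lower (2.57%). Leaving out PBS 2 gave 562 called genes, leaving out PBS 3 gave 566, leaving out PBS 1 gave 3745, leaving out AF 1 gave 2688, leaving out AF 2 gave 1578 and leaving out AF 3 gave 1072. Without PBS 1 the PBS group is PBS 2 and PBS 3, which may be 1 sample. The counts and fold changes of that fit, here and below, then rest on 1 PBS sample and hold no spread between PBS rats. The shares of all genes called are the background for every count of calls below. In bulk tissue, fewer cells of a type and less RNA per cell cannot be told apart, and the same holds for more.

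Compact myelin was represented by Mbp and Pmp22. Mbp (ENSRNOG00000016516, chr18:75855878-75966404 in the annotation of the count table, whose build is not given in the sources used here) encodes myelin basic protein, which holds the cytoplasmic faces of the membrane together. Mbp was at 12.1, 6.69 and 5.43 CPM in PBS 1, PBS 2 and PBS 3 and at 25.5, 102 and 147 CPM in AF 1, AF 2 and AF 3. The groups did not overlap, yet AF 3 held 5.77 times the level of AF 1, which itself was 2.11 times the highest PBS library. The fitted log2 fold change of Mbp was 3.50 ± 0.69 (SE), and it was 3.90 without AF 1, 3.41 without AF 2 and 2.97 without AF 3. Pmp22 (ENSRNOG00000003338, chr10:47795709-47825714) encodes peripheral myelin protein 22, a membrane protein of compact myelin that fibroblasts and other cells also make. Pmp22 was at 178, 265 and 262 CPM in the PBS libraries and at 320, 411 and 625 CPM in AF 1, AF 2 and AF 3. All AF libraries lay above all PBS libraries, by a smaller factor than for Mbp, with a log2 fold change of 0.94 ± 0.29 (SE).

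Prx, Mag and Ncmap belong to the parts of the myelin sheath that are not compacted or to its contact with the axon. Prx (ENSRNOG00000018369, chr1:82786815-82807407) encodes periaxin, which ties the outer Schwann cell membrane to the dystroglycan complex. Prx was at 9.86, 8.30 and 7.33 CPM in the PBS libraries and at 9.94, 50.6 and 65.4 CPM in AF 1, AF 2 and AF 3. AF 1 was level with PBS 1, at 1.01 times its value, so the lack of overlap of this gene rested on that margin alone, and the high values were those of AF 2 and AF 3. Its log2 fold change was 2.30 ± 0.65 (SE).

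Mag (ENSRNOG00000021023, chr1:86148228-86163656) encodes the myelin-associated glycoprotein of the membrane that faces the axon. Mag had 1 count in each PBS library and 2, 35 and 61 counts in AF 1, AF 2 and AF 3. The PBS libraries and AF 1 were under the lowest measured level, so no ratio is given. Nearly all reads came from AF 2 and AF 3, and Mag had too few counts for the test. Ncmap (ENSRNOG00000048139, chr5:147610677-147618775) encodes a membrane protein of non-compact myelin. Ncmap was at 10.6, 6.56 and 7.27 CPM in the PBS libraries and at 6.94, 11.2 and 9.69 CPM in AF 1, AF 2 and AF 3. Its groups overlapped, and its log2 fold change was 0.18 ± 0.26 (SE).

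The remaining members mark the Schwann cell itself. Sox10 (ENSRNOG00000011305, chr7:110725274-110735544) encodes the transcription factor that sets Schwann cell identity and is also made by melanocytes and oligodendrocytes. Sox10 had 6, 8 and 6 counts in the PBS libraries and 6, 27 and 39 counts in AF 1, AF 2 and AF 3. AF 1 lay within the PBS range, and Sox10 also had too few counts for the test. Cdh19 (ENSRNOG00000029841, chr13:27936668-28019310) encodes a cadherin of Schwann cells and their precursors. Cdh19 was at 0.925, 0.322 and 0.977 CPM in the PBS libraries and at 1.71, 5.19 and 7.58 CPM in AF 1, AF 2 and AF 3. The groups did not overlap, with AF 1 nearest to PBS, and the log2 fold change was 2.68 ± 0.66 (SE).

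S100b (ENSRNOG00000001295, chr20:12372881-12394743) encodes a calcium-binding protein used as a Schwann cell marker that cartilage and fat cells make as well. S100b was at 256, 249 and 233 CPM in the PBS libraries and at 412, 360 and 392 CPM in AF 1, AF 2 and AF 3. It was the member whose AF libraries were most alike, AF 1 was its highest library, and its log2 fold change was 0.66 ± 0.10 (SE). AF 2 held 0.875 and AF 3 0.951 times the S100b level of AF 1. S100b therefore did not share the gap between AF 1 and the other 2 AF libraries that Mbp, Prx, Mag, Sox10 and Cdh19 showed.

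**Figure D1:**
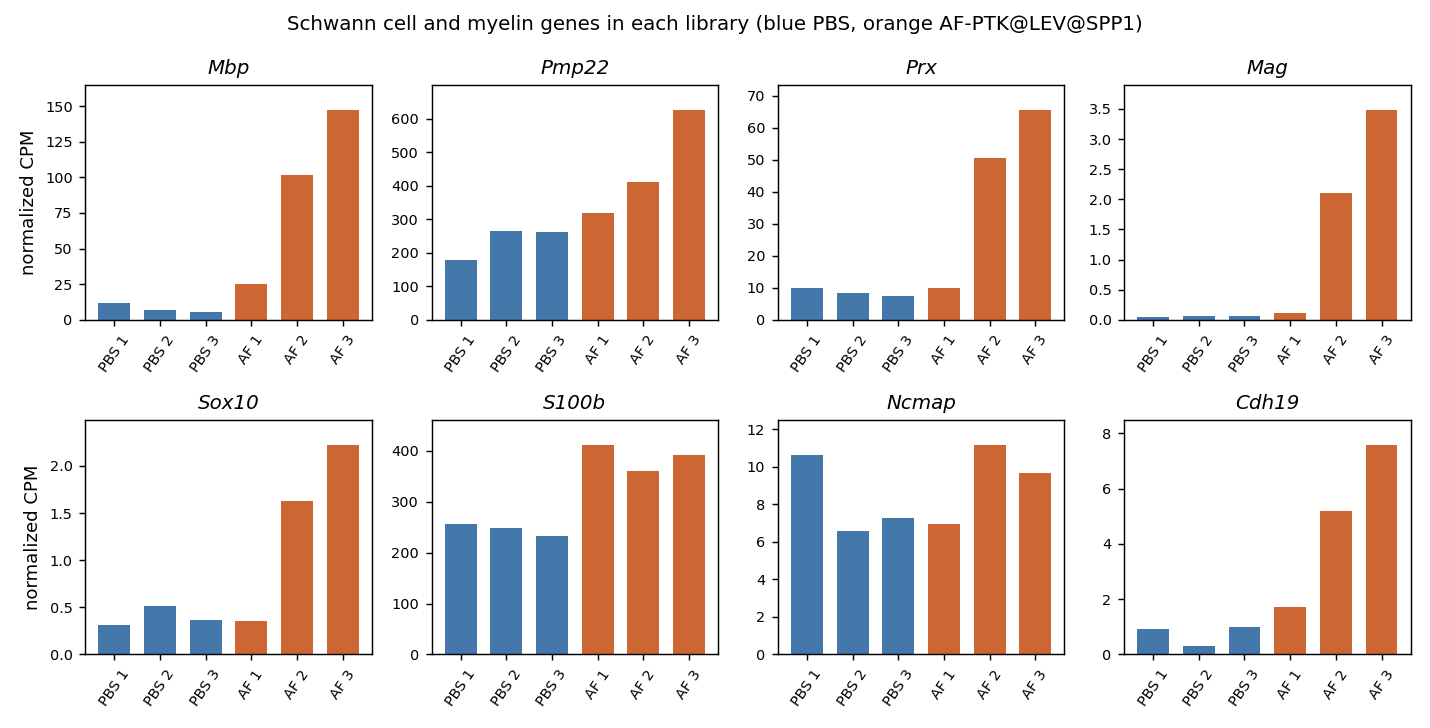
Normalized CPM of the 8 Schwann cell and myelin genes in each library, with a separate linear axis from 0 for each gene and a bar for each library. Mbp, Prx, Mag, Sox10 and Cdh19 were high in AF 2 and AF 3, S100b was at 360 to 412 CPM in all AF libraries, and Ncmap overlapped between the groups.

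Counts were high enough for the test in 6 of the 8 genes, with log2 fold changes from 0.18 to 3.50. AF 3 was the highest and AF 2 the second highest library for 6 of the 8. The share of all genes with that order was not counted, so nothing is read from it or from counts of highest libraries below. Every AF library lay above every PBS library for 5 of the 6 tested genes, beside 21.6% of all genes tested, and since the genes were chosen on this contrast nothing is read from this count. In Mag the margin of AF 1 over PBS was 1 count, which is under the lowest measured level.

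Of the other genes of nerve, 89 were listed by role in 7 lists, and 63 had enough counts for the test. Of these, 12 were called higher and 10 lower, and 41 were not called. With PBS 2 and PBS 3 summed, 1 was higher (Lgi4, edgeR adjusted p = 0.0322) and 1 lower (Nab1, edgeR adjusted p = 0.0402). The counts were the same without PBS 2 and without PBS 3. The other calls named below were thus lost in those fits and with the pair summed. The lists were chosen with earlier results of these data known, and which nerve markers led to the choice of the 8 genes was not given in the sources used here. The lists are therefore no independent evidence of a direction. Leaving out AF 1 gave 18 higher and 6 lower, leaving out AF 2 gave 7 and 6, and leaving out AF 3 gave 2 and 3.

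The peripheral myelin list held 14 genes, of which 10 were tested, 3 were called higher and 7 were not called. It may hold markers that led to the choice of the 8 genes, so nothing is read from these counts and its levels are a description. The log2 fold changes of the 10 ran from -0.13 to 4.62 around a median of 2.77, which is no support for a direction, as genes such as Pllp and Pmp2 had enough counts for the test through the AF libraries. The summed level of the list was 57.3, 37.5 and 38.6 CPM in PBS 1, PBS 2 and PBS 3 and 68.0, 174 and 231 CPM in AF 1, AF 2 and AF 3. Thus AF 1 stayed close to PBS 1, while AF 2 and AF 3 lay above it, and AF 3 was the highest library for 12 of the 14 genes.

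Mal, which encodes a protein that sorts membrane to myelin, was at 9.55, 2.64 and 3.36 CPM in the PBS libraries and at 13.5, 41.5 and 65.7 CPM in the AF libraries, with a log2 fold change of 2.94, and 3.74 without PBS 1. It followed the order of Mbp, with AF 3 above AF 2 and AF 2 above AF 1. Gldn, which encodes gliomedin, the Schwann cell ligand that gathers sodium channels at the node of Ranvier, did not. Gldn was at 1.85, 0.450 and 0.244 CPM in the PBS libraries and at 10.5, 7.42 and 6.67 CPM in AF 1, AF 2 and AF 3, so that AF 1 was the highest library (log2 fold change 3.23, and 4.54 without PBS 1). Sh3tc2, which encodes a Schwann cell protein of recycling endosomes, had a log2 fold change of 1.72, and 2.41 without PBS 1, with AF 2 as its highest library. Cnp, which encodes an enzyme of non-compact myelin found in many cells, had a log2 fold change of 0.31.

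The list of regulators and receptors moved in both directions. Of its 14 genes, 12 were tested, 2 were called higher and 3 lower, and the median over the list was -0.48 on the log2 scale. Lgi4, which encodes a secreted Schwann cell signal needed for myelination, was at 6.83, 6.24 and 6.41 CPM in the PBS libraries and at 25.2, 16.6 and 22.3 CPM in AF 1, AF 2 and AF 3. It was high in every AF library, AF 1 included, with a log2 fold change of 1.72 ± 0.18 (SE; edgeR adjusted p = 0.00431). Adgrg6, which encodes the adhesion receptor GPR126 that starts myelination and is also made by disc and cartilage cells, rose by 0.97 on the log2 scale (edgeR adjusted p = 0.0386). Erbb3, which encodes the neuregulin receptor of Schwann cells, was at 9.35, 7.33 and 7.02 CPM in the PBS libraries and at 3.47, 5.25 and 4.50 CPM in the AF libraries. Erbb3 thus fell, with a log2 fold change of -0.84 ± 0.22 (SE; edgeR adjusted p = 0.0453). Nab1, which encodes a cofactor of EGR proteins, had a log2 fold change of -0.74 (edgeR adjusted p = 0.00586), and Lpar1, which encodes a receptor for lysophosphatidic acid, one of -0.53 (edgeR adjusted p = 0.0269). Egr2, the master regulator of myelination, was at 6.63, 4.89 and 5.01 CPM in the PBS libraries and at 3.12, 4.40 and 3.82 CPM in the AF libraries. All AF values of Egr2 were below all PBS values, but it was not called (log2 fold change -0.54, edgeR adjusted p = 0.132), and neither was Zeb2, which encodes a repressor of inhibitors of myelination (-0.30, edgeR adjusted p = 0.204). Egr2 is also made by immune cells, and the source of its reads was not tested.

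Among 9 genes of immature and non-myelinating Schwann cells, 6 were tested, 2 were called higher and 1 lower, around a median of 0.31 on the log2 scale. Scn7a, which encodes a sodium channel of non-myelinating Schwann cells, was at 12.2, 3.99 and 3.66 CPM in the PBS libraries and at 19.8, 36.0 and 45.9 CPM in the AF libraries, and rose by 2.34 on the log2 scale (edgeR adjusted p = 0.0367), and by 3.14 without PBS 1. Ncam1, a neural cell adhesion gene that muscle also uses, rose by 0.46 (edgeR adjusted p = 0.0139). Gfap, which encodes an intermediate filament of glia, was at 4.31, 12.7 and 9.22 CPM in the PBS libraries and at 0.412, 1.75 and 1.82 CPM in the AF libraries. Gfap fell, with a log2 fold change of -2.71 ± 0.63 (SE; edgeR adjusted p = 0.0336), opposite in sign to Scn7a. Ngfr, which encodes the p75 neurotrophin receptor, was not called (0.16, edgeR adjusted p = 0.672).

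Injured nerve turns Schwann cells into a repair form that loses myelin genes and makes Jun and other genes. Of the 10 genes listed for that form and for the inhibition of myelination, 6 were tested and 0 were called by edgeR in either direction. At an unadjusted p under 0.05, 0 were higher and 1 lower, and DESeq2 and limma-voom called 0. Without AF 1, edgeR called 1 higher and 0 lower. Jun was at 55.1, 135 and 137 CPM in the PBS libraries and at 70.0, 60.0 and 112 CPM in the AF libraries, which lay within the PBS range. Id2, which encodes an inhibitor of myelin gene transcription, had a log2 fold change of 0.42 (edgeR adjusted p = 0.389), and Gap43, a growth gene of axons and Schwann cells, one of 0.89 (edgeR adjusted p = 0.362), and 1.49 without PBS 1. Sox2, which encodes a factor of the immature state, was at 0.513 CPM or less in every library and was not tested.

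The genes of axon contact and basal lamina numbered 15, of which 14 were tested, 2 were called higher and 1 lower, around a median of 0.57 on the log2 scale. Cadm3, which encodes an adhesion protein of axons, was at 18.7, 11.1 and 10.5 CPM in the PBS libraries and at 38.3, 45.2 and 54.0 CPM in the AF libraries. All AF libraries were high for Cadm3 (log2 fold change 1.77 ± 0.26 SE, edgeR adjusted p = 0.0102). Utrn, which encodes a link from the cytoskeleton to dystroglycan, rose by 0.62 (edgeR adjusted p = 0.0282), and Nrcam, a cell adhesion gene of the node of Ranvier, had a log2 fold change of -1.34 (edgeR adjusted p = 0.0391). Dag1, which encodes dystroglycan, and Lamc1, which encodes a laminin chain, were not called, with -0.11 (edgeR adjusted p = 0.629) and -0.50 (edgeR adjusted p = 0.18).

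Of the 16 axon and neuron genes, 6 had enough counts for the test. Of these, 1 was called higher and 2 lower, around a median of -0.33 on the log2 scale. Cntnap1, which encodes an axonal protein beside the node of Ranvier, rose by 1.26 (edgeR adjusted p = 0.0247). Tubb3, which encodes neuronal tubulin, was at 2.41, 3.09 and 2.87 CPM in the PBS libraries and at 0.353, 0.302 and 0.741 CPM in the AF libraries. It fell, with a log2 fold change of -2.56 ± 0.39 (SE; edgeR adjusted p = 0.0115), as did Stmn2, a gene of growing axons (-1.83, edgeR adjusted p = 0.0269). Uchl1, which encodes a neuronal ubiquitin hydrolase, was not called (0.23, edgeR adjusted p = 0.412). The list summed to 22.5, 25.0 and 23.9 CPM in the PBS libraries and to 27.3, 26.0 and 29.8 CPM in the AF libraries. That sum runs over genes that went both ways. It includes Th, which had too few counts for the test and was at 5.47 CPM in AF 1 and at 0.386 CPM or less in the PBS libraries. The difference between this list and the myelin genes was not tested.

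Paralogs of the 8 genes and related genes did not move as a family. Of 11 listed, 9 were tested, 2 were called higher and 3 lower, around a median of 0.07 on the log2 scale. S100a1, a relative of S100b made in muscle and cartilage, rose by 1.06 (edgeR adjusted p = 0.0172), and Cdh6, a cadherin gene, rose by 1.65 (edgeR adjusted p = 0.0454). The relatives of Pmp22 did not share its sign throughout: Emp1 had a log2 fold change of -1.09 (edgeR adjusted p = 0.0319), Emp3 one of -0.63 (edgeR adjusted p = 0.0205) and Emp2 one of 0.23 (edgeR adjusted p = 0.286). Sox8 and Sox9, relatives of Sox10 made in cartilage among other tissues, were not called, with -0.21 (edgeR adjusted p = 0.666) and 0.39 (edgeR adjusted p = 0.464). Ahnak, a larger relative of Prx, was not called either (0.07, edgeR adjusted p = 0.857).

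**Figure D2:**
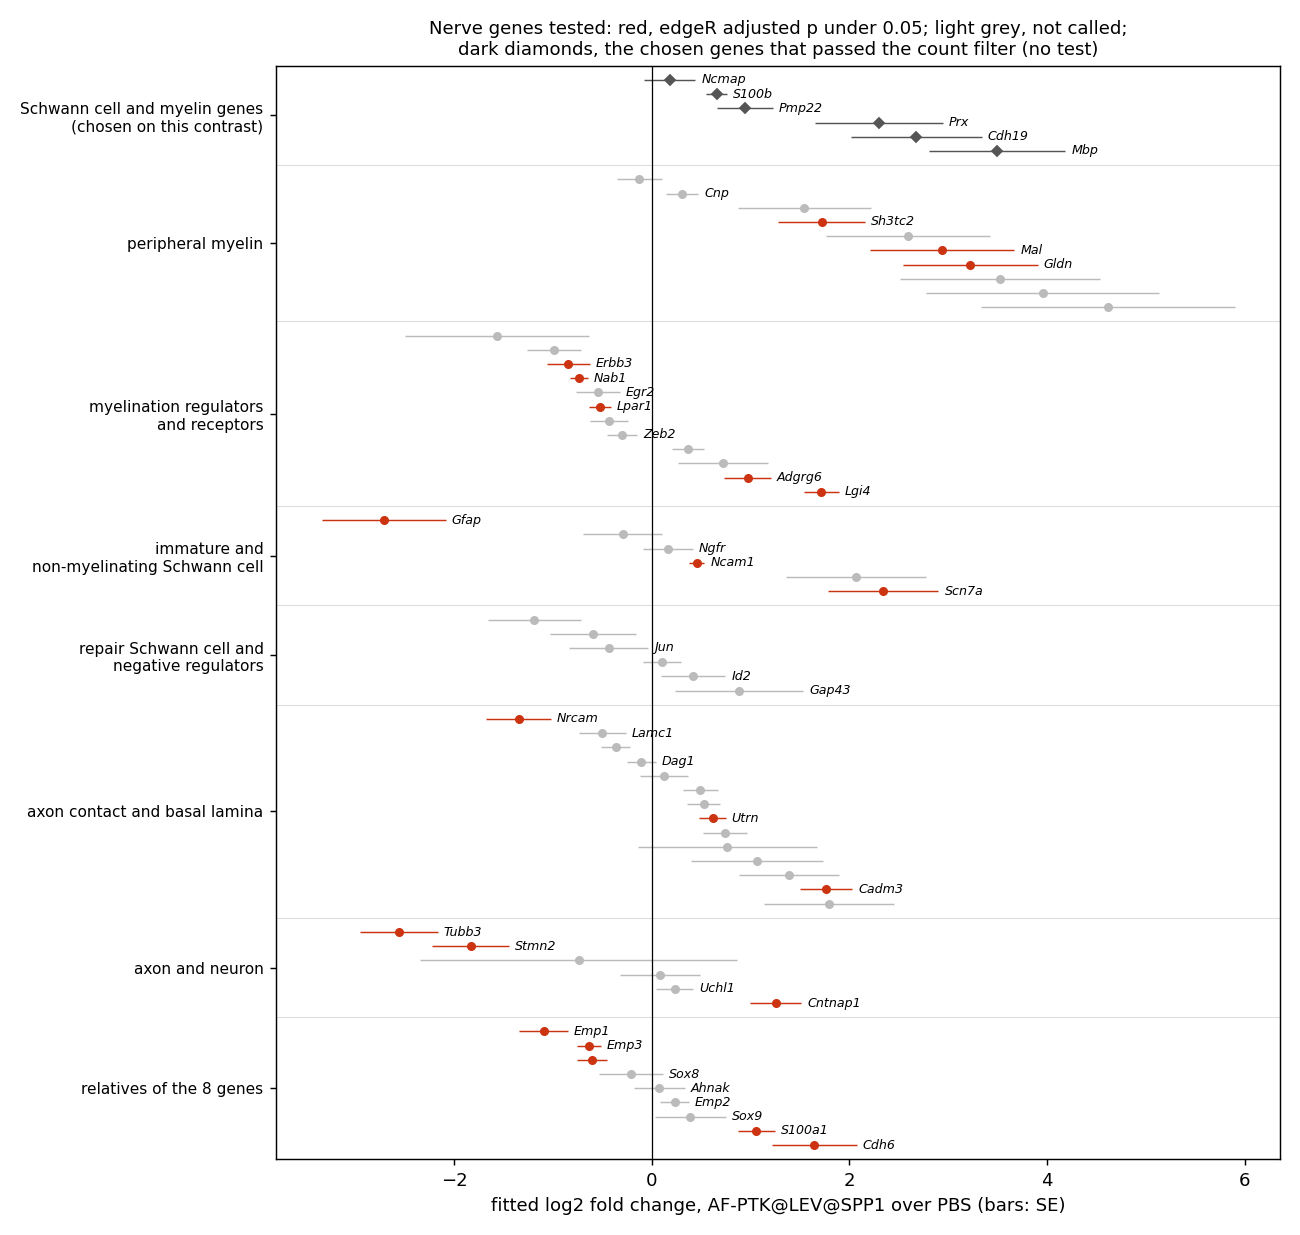
Fitted log2 fold change, AF-PTK@LEV@SPP1 over PBS, of each nerve gene tested, with bars for the SE and a block for each list. The peripheral myelin genes lay mostly to the right of 0 with wide errors. That list may hold markers that led to the choice of genes, and some of its genes had enough counts only through the AF libraries. No direction is therefore read from it. The regulators, axon genes and relatives lay on both sides, and the lists were not tested against each other.

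Several of the 8 genes are also made outside peripheral nerve, so lists of markers of other cells were read in the same libraries. Over 11 such lists, 70 genes were listed, 67 were found and 59 tested, of which 4 were called higher and 9 lower. With PBS 2 and PBS 3 summed, 0 were higher, with 9 at an unadjusted p under 0.05 in edgeR, and 2 lower (1 fibroblast and 1 macrophage marker), so the calls in the other lists were lost. The counts were the same without PBS 2 and without PBS 3. They were 19 and 10 without PBS 1, 13 and 7 without AF 1, 2 and 3 without AF 2, and 1 and 4 without AF 3. Oligodendrocytes, the myelin cells of the brain and spinal cord, make Mbp, Mag and Sox10. Their 6 markers summed to 0.770, 0.579 and 0.611 CPM in the PBS libraries and to 0.588, 1.27 and 0.741 CPM in the AF libraries, with Hapln2 as the most abundant. None of the 6 had enough counts for the test, and Olig2 and Opalin had 0 counts in every library. The part of oligodendrocytes in the levels of the myelin genes was not tested. Melanocytes also make Sox10. Their 6 markers summed to 53.2, 58.7 and 61.8 CPM in the PBS libraries and to 58.2, 40.7 and 43.1 CPM in the AF libraries, with Mitf, which many cells express, as the most abundant. Dct and Tyr had 0 counts in every library, and of the 4 markers tested 0 were called higher and 1 (Tyrp1) lower. Tyrp1 was at 0.976, 5.85 and 5.56 CPM in the PBS libraries and at 0.118, 0.241 and 0.342 CPM in the AF libraries. Mlana was at 2.31, 0.579 and 0.855 CPM in the PBS libraries and at 8.64, 2.11 and 4.96 CPM in the AF libraries, and Pmel at 1.28, 2.32 and 1.89 CPM and at 3.35, 2.65 and 2.39 CPM. For Mlana and Pmel AF 1 was thus the highest library, and the part of melanocytes in the level of Sox10 was not tested.

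Other lists did move with the myelin genes. The 6 neutrophil markers summed to 1033, 169 and 160.0 CPM in the PBS libraries and to 255, 2439 and 3449 CPM in AF 1, AF 2 and AF 3, with S100a9 as the most abundant. AF 3 was the highest library for 6 of these 6 genes, as it was for most myelin genes, but PBS 1 was higher than AF 1. The 5 erythroid markers summed to 128, 40.6 and 36.8 CPM in the PBS libraries and to 100.02, 1622 and 753 CPM in the AF libraries, with Slc4a1 as the most abundant. The 6 skeletal muscle markers found in the table summed to 825, 1091 and 1106 CPM in the PBS libraries and to 816, 8513 and 2162 CPM in the AF libraries, with Acta1 as the most abundant. For both lists AF 2 was above AF 3, the reverse of their order for Mbp, Mal and Prx. edgeR called 0 genes of these 3 lists, with 0, 5 and 2 at an unadjusted p under 0.05. DESeq2 called 0, 5 and 2 and limma-voom called 0 in each. Without AF 1, edgeR called 1, 2 and 4 higher. Whether blood, marrow or muscle tissue was carried into AF 2 and AF 3, and its part in the levels of the myelin genes, was not tested.

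Fat and cartilage cells make S100b. The 8 adipocyte markers summed to 527, 96.0 and 101 CPM in the PBS libraries and to 1133, 1851 and 846 CPM in the AF libraries, with Fabp4 as the most abundant. All AF libraries were above all PBS libraries in this sum, and 2 of the 8 were called higher. Of the 7 markers of chondrocytes and nucleus pulposus found in the table, 1 was called higher and 1 lower. They summed to 19942, 30334 and 30206 CPM in the PBS libraries and to 38724, 26842 and 42545 CPM in the AF libraries, with Col2a1 as the most abundant. Krt8 (64.7 to 287 CPM in PBS, 478 to 1477 CPM in AF) and Krt18 (11.2 to 24.1 and 67.5 to 282 CPM) were higher in every AF library and highest in AF 1. Matn3 was lower in every AF library, and the other markers overlapped between the groups. S100b was thus measured beside a fat list that was higher in every AF library and a cartilage list whose sum overlapped between the groups. The part of fat and cartilage cells in the level of S100b was not tested. Endothelium makes Prx. Of its 6 markers 3 were called lower, against 0 with PBS 2 and PBS 3 summed, without AF 2 or without AF 3, and they summed to 498, 601 and 585 CPM in the PBS libraries and to 375, 438 and 435 CPM in the AF libraries. edgeR called 0 of the 6 higher, with 0 at an unadjusted p under 0.05 and 0 by DESeq2 and limma-voom, and the part of endothelium in the level of Prx was not tested.

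**Figure D3:**
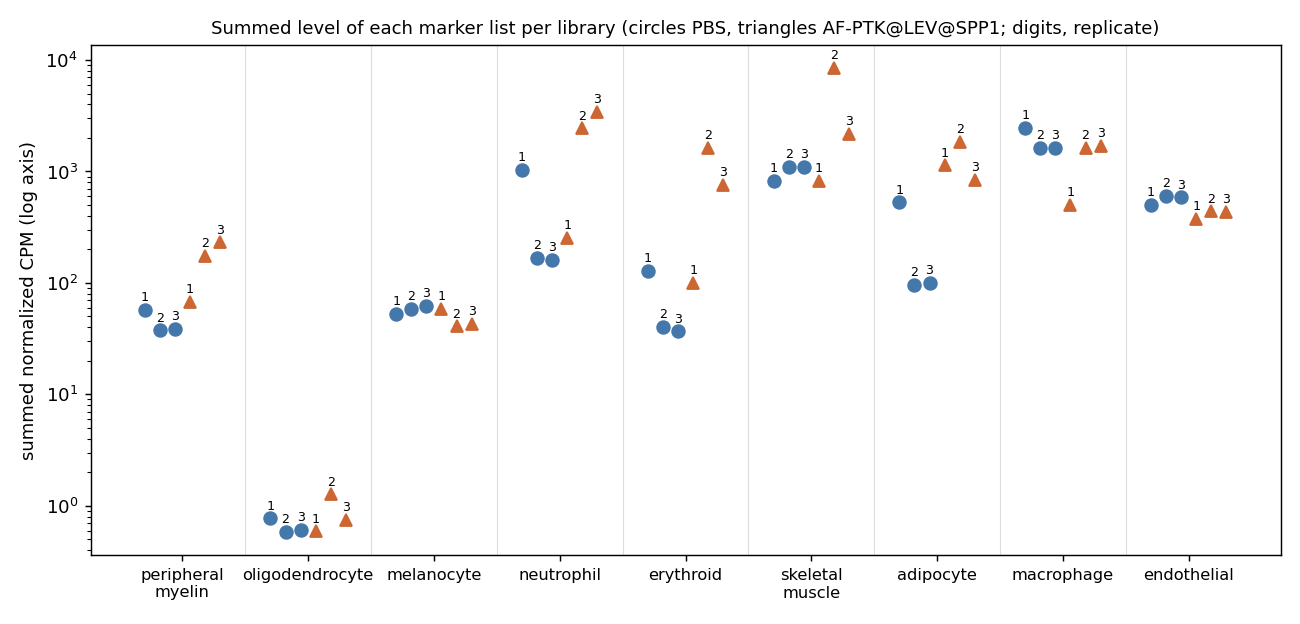
Summed normalized CPM of the markers of each cell type in each library on a log axis, with circles for PBS, triangles for AF-PTK@LEV@SPP1 and the replicate number above each point. Peripheral myelin (174 and 231 CPM), neutrophil, erythroid and skeletal muscle markers were all higher in AF 2 and AF 3 than in AF 1, whereas oligodendrocyte markers stayed near 1 CPM.

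The genes whose levels followed the 8 members most closely were ranked by Pearson correlation of log2 CPM with the mean z score of the members, over 5 distinct samples with PBS 2 and PBS 3 averaged. Genes with a mean log2 CPM under 3 were not ranked, which left out nerve genes of low counts. That score was -0.653 in PBS 1, -0.907 in the PBS pair, -0.308 in AF 1, 0.798 in AF 2 and 1.07 in AF 3. The 10 closest of 10010 genes were Syvn1, Irf2bp1, Senp7, Tut1, Igbp1, Rcsd1, Cep295, Mphosph9, Cpne3 and Pnn, with r from 0.995 to 0.985. Of the nerve genes that were ranked, Mal was the closest, at rank 51. The measure reads the order and spacing of the samples and not the size of a change: Syvn1, the closest, was at 27.6 to 31.5 CPM in the PBS libraries and at 32.5, 37.1 and 38.3 CPM in the AF libraries. With 5 samples many genes reach such a value, and nothing is said of shared control.

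The promoter windows of RefSeq (build GRCr8) run from 250 bases before to 50 after the start of each gene. They were searched on both strands for the short words of the factors named above. The window was found for 7 of the 8 genes, all but Sox10. The core words of the SOX family, ACAAAG and ACAATG, were found in 1 of the 7 windows, beside 28.6% of all 27457 promoters. The words of the EGR family, GCGTGGGCG and GCGGGGGCG, of which none contains another or a SOX word, were found in 0 of the 7, beside 3.31% of all promoters. Mag held the SOX word, 152 bases before its start and on the strand opposite to the gene, and it is printed in capitals as it reads on the strand of the gene. The 250 bases before the start of Mag (chr1:95291045-95291294, minus strand) are shown since they hold that word. Those of Prx (chr1:91914171-91914420, plus strand), which had a similar pattern of levels over the libraries, are shown beside them and hold none of the 4 words.
Mag: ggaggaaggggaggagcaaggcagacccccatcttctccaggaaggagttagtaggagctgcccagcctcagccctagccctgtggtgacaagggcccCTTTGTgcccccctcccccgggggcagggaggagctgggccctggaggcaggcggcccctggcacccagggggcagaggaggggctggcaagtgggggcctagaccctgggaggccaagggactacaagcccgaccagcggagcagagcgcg
Prx: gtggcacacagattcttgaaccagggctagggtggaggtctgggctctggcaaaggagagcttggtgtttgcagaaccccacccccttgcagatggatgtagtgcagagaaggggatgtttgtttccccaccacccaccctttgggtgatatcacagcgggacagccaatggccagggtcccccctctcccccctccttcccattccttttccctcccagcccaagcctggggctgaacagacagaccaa
A match is a description of the letters in the window and not of a bound site, and the lack of a match says only that these letters are not there.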

How the data were processed

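Whole-disc RNA was counted in 3 PBS and 3 AF-PTK@LEV@SPP1 libraries. The authors deposited counts, whole reads per rat Ensembl gene without normalization. The submitters' processing notes name FastQC, Trimmomatic, HISAT2, featureCounts and DESeq2, and list a mouse build, mm10, for rat genes. The build of the counts, the use of strand and the handling of shared reads were not given in the sources used here. The columns of AF-PTK@LEV@SPP1 were matched to samples by the start of the treatment name and by number. The control columns are named IVD, which is no control label of the samples. They were taken as PBS, since the study calls its PBS group IVDD and no other group remained, and were matched by number. In R 4.3.3, edgeR 4.0.16 was used with TMM normalization, filterByExpr (minimum count 10), its quasi-likelihood test and Benjamini-Hochberg adjustment over 15042 genes. SEs were derived from the fold change and its F statistic. CPM used the same TMM factors, and log2 CPM a prior count of 2. The members and the marker lists were chosen with earlier results of these data known. Named genes were all members, and of each nerve list the called genes with the largest changes (4 at most), the 2 most abundant, and 10 genes fixed by name. Some genes are not reported here and were left out of the lists and rankings. Alternatives were RLE and upper quartile scaling, DESeq2 1.42.0, limma-voom (limma 3.58.1), no count filter, a replicate block, the PBS pair summed, and each library left out. The share of all genes at an unadjusted p under 0.05 was not counted, so counts of genes at that threshold have no background. The steps were tested on simulated counts. p-values measure the spread between these libraries. Where a fit holds PBS 2 and PBS 3 as separate libraries, they understate the spread between rats if that pair comes from the same sample.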

Additional observations from a re-analysis of the deposited data

How the results depend on the processing

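The direction of all 6 tested members was the same in 78 of 78 values under the 13 alternatives, a direction their choice fixes, and the median log2 fold change, 1.62 in the main fit, ran from 1.24 without AF 3 to 1.92 without AF 1. Of 455 values for 35 other named genes, 337 kept direction and side of the threshold, 115 lost the call, 1 gained it and 2 changed sign: Ahnak, not called in any of them, was at -0.10 without PBS 1 and at -0.21 without AF 1, and at up to 0.19 without AF 2.

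Other scaling moved no count of calls by over 1.5 times. DESeq2 called 20 nerve genes higher and 19 markers of other cells higher, beside 1890 of all 15042 genes, against 1233 in the main fit. With PBS 2 and PBS 3 summed, 575 genes were called, 1 nerve gene higher and 1 lower, and 0 markers of other cells higher (9 at an unadjusted p under 0.05 in edgeR) and 2 lower. Leaving out libraries singly, the called genes ran from 562 to 3745, nerve genes from 1 to 18 higher and from 1 to 13 lower, and markers of other cells from 0 to 19 higher and from 2 to 10 lower. Fewer samples enter these fits by construction. The fit without PBS 1 keeps only PBS 2 and PBS 3 as PBS, so its counts rest on 1 PBS sample if the pair is 1. What else changed the counts was not tested. The markers of other cells were put through the alternatives after seeing the data.

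The number of members called had been planned, and nothing is read from it, since the same contrast chose them. It was 3 of 6 tested in the main fit (all genes higher: 1233 of 15042), 5 with DESeq2 (1890) and 1 with limma-voom (1133). It was 0 with PBS 2 and PBS 3 summed (6 at an unadjusted p under 0.05 in edgeR) and 0 with the replicate block (4 at an unadjusted p under 0.05 in edgeR). The replicate block called 307 of 15042 genes higher. The share of all genes at an unadjusted p under 0.05 was not counted, so nothing is read from the 6 or the 4. The summed fit tested 15537 genes and called 175 of them higher. Its 6 are not the 6 members tested in the main fit, since Ncmap was at 0.07 on the log2 scale when summed (edgeR adjusted p = 0.899). Leaving out libraries singly, the number of members called ran from 0 to 7, the latter without AF 1. Without AF 1, 1256 of 15460 genes were called higher, and more members than in the main fit had enough counts for the test.

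The replicate block gave 741 called genes, 2 nerve genes higher and 2 lower, and 4 markers of other cells higher and 3 lower. Same-numbered libraries had a mean correlation of deviations of -0.228, against 0.103 for other pairs, so the numbers give no sign of pairing, and a lost call is not read as a weaker effect.

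Limits: PBS has 2 distinct samples if PBS 2 and PBS 3 are 1. Mag and Sox10 have few counts, and differences under 3 counts were not detectable at this depth. Reads shared between relatives could not be followed. Without histology or single cells, nerve tissue in the dissected sample and nerve within the disc cannot be told apart.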

Other observations

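Markers of 3 other cell types of the disc were also read. Of the 6 fibroblast markers, 1 was called higher and 3 lower by edgeR, with Col1a1 as the most abundant. Lum, which encodes the matrix proteoglycan lumican, was at 2474, 5922 and 5954 CPM in the PBS libraries and at 324, 444 and 436 CPM in AF 1, AF 2 and AF 3, with a log2 fold change of -3.57 (edgeR adjusted p = 0.00518). It was named after its values were seen. Of the 6 macrophage markers, edgeR called 0 higher, with 1 at an unadjusted p under 0.05, 1 by DESeq2 and 0 by limma-voom, and 1 lower (Cd68), and their median log2 fold change was -0.65. Without AF 1, edgeR called 1 of the 6 higher and 1 lower. Cd68 was at 150, 112 and 116 CPM in the PBS libraries and at 28.5, 42.1 and 30.9 CPM in the AF libraries, with a log2 fold change of -1.90 (edgeR adjusted p = 0.00409). The 6 summed to 2471, 1641 and 1624 CPM in the PBS libraries and to 505, 1629 and 1693 CPM in AF 1, AF 2 and AF 3, so AF 1 was the lowest library, and among the AF libraries the sum had the order of Mbp, while PBS overlapped AF. Lyz2, the most abundant of them, was at 1833, 1267 and 1247 CPM in the PBS libraries and at 272, 1243 and 1401 CPM in the AF libraries. Cd163, the 1 marker of the 6 with a positive log2 fold change (1.30, not called), was at 54.0, 29.5 and 29.0 CPM in the PBS libraries and at 47.2, 143 and 88.3 CPM in the AF libraries, highest in AF 2 and AF 3. The part of macrophages in the levels of the myelin genes was not tested. Of the 5 markers of pericytes and smooth muscle, edgeR called 0 in either direction, with 1 higher at an unadjusted p under 0.05, 1 by DESeq2 and 0 by limma-voom. Without AF 1, edgeR called 1 of the 5 higher. The 5 summed to 589, 729 and 738 CPM in the PBS libraries and to 1337, 771 and 703 CPM in the AF libraries, and AF 1 was the highest.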
